A study of Homo sapiens with 14 samples.

Results

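The gene levels that PARS-seq gave in ADAR1 knockdown and control cells were compared gene by gene. PARS-seq cuts folded RNA with a nuclease and reads where the cuts fall, and the reads of a gene can also be summed to a level. The levels are RPKM, read counts divided by transcript length and by library size. The deposited table has 21574 entries, each a gene symbol or several merged symbols and called a gene below, and 7756 of them had a mean of at least 5 RPKM over the 4 PARS-seq columns and were tested.

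Of the 14 samples in the series, 8 are PARS-seq libraries. The control cells received scrambled siRNA and the knockdown cells received siRNA against ADAR1, with 2 replicates of each, and both arms are labelled HepG2, a line derived from a human liver tumour. Each replicate was cut with S1 nuclease, which digests unpaired bases, and with RNase V1, which digests paired bases. Each PARS-seq column is the authors' mean of the S1 and the V1 library of 1 replicate, which leaves 2 control and 2 knockdown columns. The table also has 2 RNA-seq libraries and 4 Ribo-seq libraries of the same 2 conditions. RPKM carries no read count, and read starts of the same libraries, used at the end, give the depth only of transcripts that could be paired with a gene. The columns summed to between 400444 and 444471 RPKM. The study calls the replicates biological, and whether each was a separate culture is not stated. Fewer transcripts per cell and fewer cells expressing a gene cannot be told apart in these bulk samples.

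The hepatocyte markers go against the cell line label. Of 13 marker genes expected in HepG2 cells, KRT8 and KRT18 reached the minimum of 5 RPKM, and both are keratins of simple epithelia in general. The other 11 did not exceed 0.179 RPKM in any PARS-seq column or 0.811 RPKM in any RNA-seq or Ribo-seq library. ALB, the gene of serum albumin, had at most 0.00352 RPKM in PARS-seq, and AFP, the gene of alpha-fetoprotein, at most 0.0286 RPKM. APOB did not exceed 0.00100 RPKM, and SERPINA1 was listed at 0 in all 4 PARS-seq columns. Summed over the list, the markers reached 518 and 292 RPKM in the control columns and 373 and 317 RPKM in the knockdown columns, nearly all of it from the keratins, with KRT8 the most abundant in every column. Among 51 secreted plasma proteins of the liver, 4 reached the minimum. The absence holds in both conditions and in every assay, so the samples are called cells labelled HepG2 throughout. The lists of endothelial and blood cell markers had 0 of 8 and 0 of 12 genes at the minimum. The list of fibroblast markers had 2 of 10, the collagen genes COL1A1 and COL3A1, and neither passed the test. Its sum was 126 and 109.6 RPKM in the control columns and 89.4 and 69.8 RPKM in the knockdown columns, most of it from COL3A1. Elsewhere, 4 of the 10 fibroblast markers reached 5 RPKM in both RNA-seq libraries. In Ribo-seq, 5 did so in the control and 4 in the knockdown of replicate 1, and 2 in both libraries of replicate 2. The highest in replicate 1 was LUM, at 112 RPKM in the control and 80.4 RPKM in the knockdown. Whether other cells contributed to the samples was not tested.

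ADAR1, the product of the gene ADAR, converts adenosine to inosine in double-stranded RNA. Loss of this editing is known to expose endogenous double-stranded RNA to sensors that start interferon signalling and block translation. Separately, human cells keep groups of genes under shared transcription factors: NRF2 for antioxidant and detoxifying enzymes, MTF1 for metal-binding metallothioneins, ATF4 for amino acid supply under stress, and p53 for arrest and DNA repair. The results below are ordered by these groups, after the target gene and the genes with the widest change.

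The target gene was checked first. ADAR had 40.7 and 46.8 RPKM in the control columns and 15.1 and 15.1 RPKM in the knockdown columns, so the 2 conditions did not overlap. The log2 ratio, computed throughout as log2 of knockdown plus 1 RPKM over control plus 1 RPKM, was -1.37 and -1.57 in the replicates. The mean of -1.47 had a 95% confidence interval from -1.85 to -1.09 and an adjusted p of 0.00116 in limma, which models log values of all tested genes together. Its paralog ADARB1, a second editing enzyme, rose from 5.75 and 8.89 RPKM to 13.8 and 16.9 RPKM, with an adjusted p of 0.0157. The other log2 ratios of ADARB1 did not agree on that rise, with 0.13 in RNA-seq, 1.15 in Ribo-seq replicate 1 and -0.54 in Ribo-seq replicate 2, where it went from 9.90 to 6.52 RPKM. The tRNA deaminase subunit ADAT2 also rose, from 4.29 and 7.57 to 9.84 and 12.2 RPKM, with an adjusted p of 0.0428. That call of ADAT2 is weak, since the adjusted p was 0.0542 under TMM scaling, 0.0503 at a minimum of 1 RPKM, 0.239 (log2 ratio 0.48) without control replicate 1 and 0.0989 without knockdown replicate 2, and its ratios elsewhere, -0.18 in RNA-seq, -0.11 in Ribo-seq replicate 1 and 0.52 in Ribo-seq replicate 2, come from levels of at most 1.33 RPKM. A further 6 deaminase genes were on the list of 9, and 1 of them reached the minimum without passing the test. Both knockdown columns were thus below both control columns for ADAR.

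The comparison as a whole asked which genes change level when ADAR1 is silenced. At a Benjamini-Hochberg adjusted p under 0.05 in limma, 526 of 7756 genes were higher in the knockdown, which is 6.78%, and 592 were lower, which is 7.63%. All 1118 of these genes moved the same way in both replicates, with mean log2 ratios of at least 0.52 in size. A change of at least 2-fold in both replicates, a call without a test, was met by 81 genes upwards, 1.04%, and by 175 downwards, 2.26%, and all of them also passed the limma test. At 4-fold in both replicates, 4 genes were higher and 24 lower, and at 8-fold 6 were lower. Large changes were therefore mostly falls. Over all 7756 genes the median log2 ratio was 0.02. RPKM is already divided by library size, so this median cannot show whether levels shifted in general. Read starts of the same libraries, used at the end, had a median of -0.33 when scaled by library totals over the transcripts they share. Under TMM scaling it was 0.02. The count of calls leans on single columns: without control replicate 1 it was 333 higher and 401 lower, and without knockdown replicate 2 it was 276 higher and 352 lower. Whichever column was left out, 174 of the 526 and 278 of the 592 still passed with the same sign, and such calls are said to hold below. The count also leans on the settings, and which direction is more frequent is not settled: a minimum of 1 RPKM gave 899 higher and 829 lower, a block for the replicate number 2002 and 1827, and no minimum 0 and 0. The minimum was reached through the knockdown columns alone, with a control mean under 5 RPKM, by 100 of the 526, and through the control columns alone by 90 of the 592. With 2 columns on each side, 0.333 is the smallest two-sided p that exact permutation can reach, so no single gene could be tested that way.

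**Figure D1:**
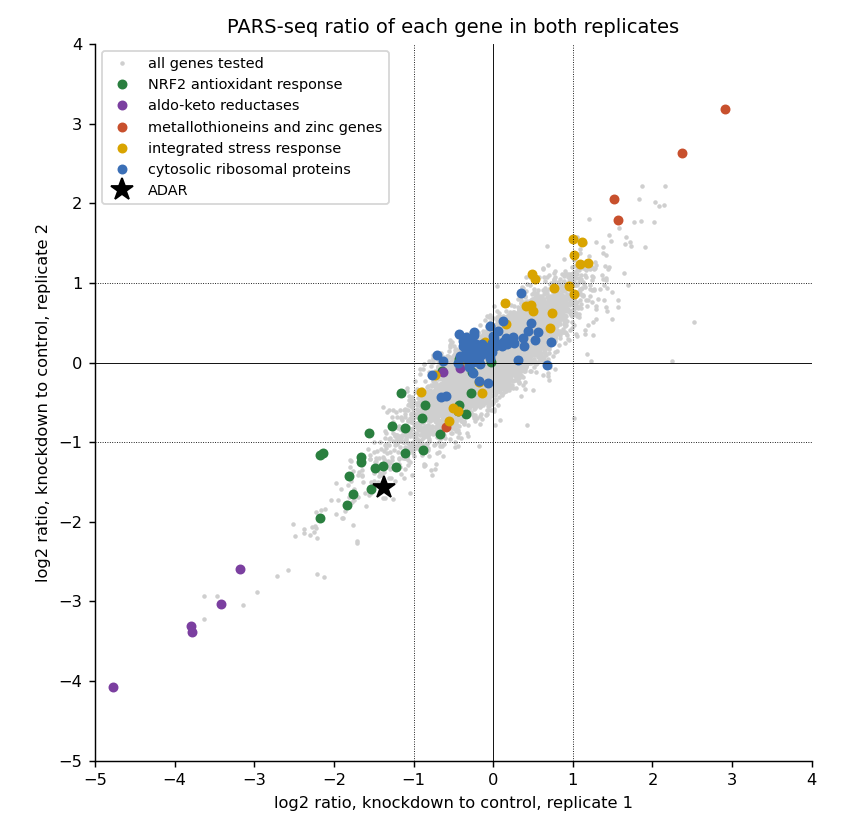
Log2 ratio of knockdown to control in replicate 1 (horizontal) and replicate 2 (vertical) for the 7756 genes tested, with 4 gene lists, the ribosomal proteins and ADAR in colour and 2-fold marked by dotted lines. The genes lie along the diagonal, the aldo-keto reductases reach furthest down with AKR1C1 at a mean of -4.42, and metallothioneins reach furthest up with MT1F at 3.05.

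The 12 largest falls, ranked by the smaller of the replicate log2 ratios, had mean log2 ratios between -2.59 and -4.42 and adjusted p of at most 0.000282. The first 3 were AKR1C1, AKR1C2 and AKR1C3, aldo-keto reductases that reduce steroids, prostaglandins and reactive carbonyls. AKR1C1 fell from 97.9 and 77.2 RPKM in the control columns to 2.61 and 3.66 RPKM in the knockdown columns, with replicate log2 ratios of -4.78 and -4.07 and an adjusted p of 1.25e-05. AKR1C3, the most abundant of the 3, fell from 648 and 479.8 RPKM in the control columns to 45.6 and 47.5 RPKM in the knockdown columns (mean log2 ratio -3.56, limma adjusted p 2.63e-05). AKR1C2 went from 45.1 and 39.4 RPKM to 2.35 and 2.89 RPKM (mean log2 ratio -3.58, limma adjusted p 1.25e-05). These paralogs are nearly identical in sequence and the authors kept only reads with 1 alignment, so the split of reads among them is uncertain, while all 3 moved together. Outside that trio, AKR1B10, which reduces retinaldehyde, went from 13.4 and 9.31 to 0.345 and 0.262 RPKM, and AKR1B1, which turns glucose into sorbitol, from 323 and 287 to 35.0 and 46.8 RPKM. These 5 genes were ranked by their falls in both replicates. That both knockdown columns lay far below both control columns in each is therefore no added support.

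Other falls among the 12 came from unrelated families. CDKN1A, the gene of the cell cycle inhibitor p21, fell from 424 and 447 RPKM in the control columns to 53.4 and 59.6 RPKM in the knockdown columns (mean log2 ratio -2.93, limma adjusted p 4.72e-05). Its replicate log2 ratios, -2.97 and -2.89, were close to each other. ALDH3A1, which oxidises aldehydes, went from 76.9 and 48.7 RPKM to 5.26 and 5.53 RPKM (mean log2 ratio -3.28, limma adjusted p 6.19e-05). CYP4F11, a fatty acid hydroxylase of the cytochrome P450 family, went from 25.2 and 34.1 to 1.38 and 3.62 RPKM. EPGN encodes epigen, a ligand of the EGF receptor, and fell from 28.3 and 27.2 RPKM to 1.37 and 2.02 RPKM (mean log2 ratio -3.42, limma adjusted p 1.25e-05). SPP1, the gene of the secreted protein osteopontin, went from 9.97 and 10.3 RPKM to 0.243 and 0.368 RPKM (mean log2 ratio -3.10, limma adjusted p 1.25e-05). Its mean of 5.23 RPKM lay just above the minimum. The remaining members were FBXO2, which binds glycoproteins for ubiquitination, at a mean log2 ratio of -2.69, and SERPINB5, the gene of maspin, at -2.59. The ranking picks genes that fell far in both replicates. That both knockdown columns were under both control columns in all 12 is therefore no added support. SPP1, AKR1B10, AKR1C1, AKR1C2, EPGN, CYP4F11, FBXO2 and SERPINB5 reached the minimum only through their control columns, so their place here is partly set by the filter.

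The 12 largest rises were smaller, with mean log2 ratios between 1.64 and 3.05 and adjusted p of at most 0.00442. MT1F and MT1X, which encode small metal-binding proteins rich in cysteine, led the order. MT1F rose from 7.38 and 8.98 RPKM in the control columns to 62.2 and 89.6 RPKM in the knockdown columns (mean log2 ratio 3.05, limma adjusted p 6.97e-05). MT1X went from 14.1 and 12.9 RPKM to 77.0 and 85.3 RPKM (mean log2 ratio 2.50, limma adjusted p 6.97e-05). YWHAH, the gene of 14-3-3 eta, an adaptor that binds phosphorylated proteins, rose from 30.3 and 43.0 RPKM in the control columns to 139 and 204 RPKM in the knockdown columns (mean log2 ratio 2.19, limma adjusted p 0.000983). EMP2, an epithelial membrane protein, went from 2.15 and 2.14 RPKM to 11.9 and 11.7 RPKM, with replicate log2 ratios of 2.03 and 2.02. LSM14A, an RNA-binding protein of processing bodies, went from 10.1 and 11.7 RPKM to 46.0 and 48.6 RPKM (mean log2 ratio 2.02, limma adjusted p 0.000183). TOP1MT, the mitochondrial topoisomerase, rose from 14.2 and 17.7 to 66.3 and 73.1 RPKM, and CBS, the first enzyme from homocysteine to cysteine, from 13.4 and 22.2 to 48.2 and 77.6 RPKM. TNNC1, which encodes a troponin C of slow and cardiac muscle, was already at 83.2 and 63.4 RPKM in the control columns and reached 251 and 207 RPKM. INHBE, a subunit of activin E, ANO2, a calcium-gated chloride channel, and the open reading frames C8orf4 and C22orf24 completed the 12, with controls between 1.87 and 5.68 RPKM. Both knockdown columns exceeded both control columns in each of the 12, which the ranking by both replicates brings about. EMP2, INHBE, ANO2, C8orf4 and C22orf24 reached the minimum only through their knockdown columns.

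**Figure D2:**
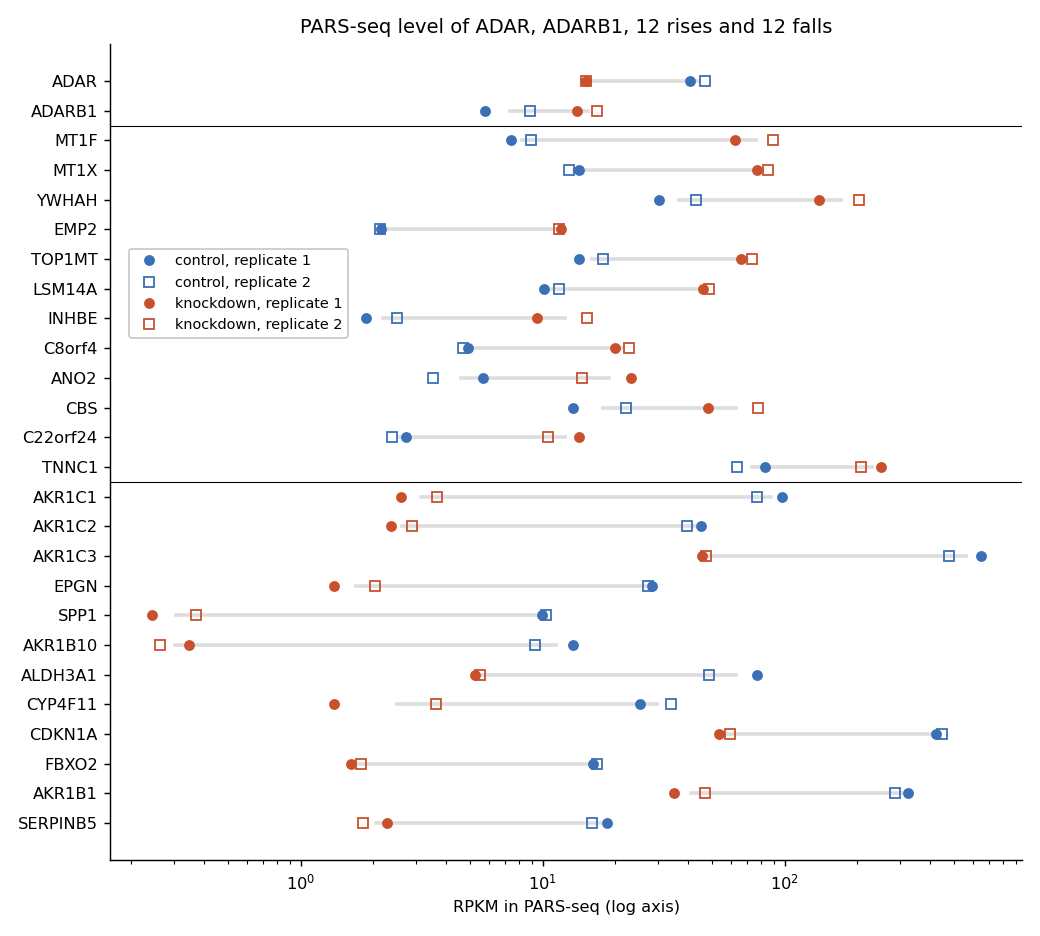
RPKM in the 4 PARS-seq columns (log axis) of ADAR, ADARB1, the 12 largest rises and the 12 largest falls, in rank order, with grey bars between the means of the conditions. Control and knockdown points do not overlap in any of the genes shown, which the ranking brings about for the rises and falls. AKR1C3 has the highest control value, 648 RPKM.

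Genes under NRF2, the factor that switches on antioxidant and detoxifying enzymes, were the largest group of falls among the lists examined. Of 30 genes on the list, 29 reached the minimum, merged symbols counting where any of them is a member, and 21 of these were lower and 0 higher, against 7.63% lower and 6.78% higher among all genes, the shares against which the counts of every list below are to be read. Their median log2 ratio was -1.03, with -1.15 in replicate 1 and -0.89 in replicate 2, beside 0.02 over all genes tested. In 27 of the 29 both replicates were below 0, and 16 of the 21 calls hold. Over all 7756 genes tested, 2988 were below 0 and 3335 above 0 in both replicates. Counts of list members on one side of 0 below are to be read against these. The list medians elsewhere were -0.55 in RNA-seq, -0.59 in Ribo-seq replicate 1 and 0.13 in Ribo-seq replicate 2, the last above 0 as for all genes tested, 0.22. GCLM, the regulatory subunit of the enzyme that starts glutathione synthesis, fell from 40.7 and 41.1 RPKM in the control columns to 10.7 and 11.1 RPKM in the knockdown columns (mean log2 ratio -1.81, limma adjusted p 0.00027). OSGIN1, an oxidative stress-induced growth inhibitor, had the lowest ratio of the list, from 24.3 and 37.1 RPKM to 4.62 and 8.81 RPKM (mean log2 ratio -2.06, limma adjusted p 0.0025). SRXN1, which repairs oxidised peroxiredoxins, went from 168 and 239.7 RPKM to 49.0 and 75.7 RPKM (mean log2 ratio -1.70, limma adjusted p 0.0037). FTL, the ferritin light chain, had the highest level of the list, ranked here and below by the mean over the 4 columns, and also belongs to the list of iron genes. It fell from 21762 and 19592 RPKM in the control columns to 4837 and 8739.7 RPKM in the knockdown columns (mean log2 ratio -1.67, limma adjusted p 0.00682). The knockdown columns of FTL differed from each other by more than its control columns did. HMOX1, which degrades heme, fell less, from 35.1 and 51.2 RPKM to 15.8 and 22.8 RPKM (mean log2 ratio -1.12, limma adjusted p 0.0158), and ME1, which makes NADPH, went from 48.6 and 42.2 to 18.1 and 16.5 RPKM. The other log2 ratios of HMOX1 were -0.21 in RNA-seq and -0.02 and 0.67 in Ribo-seq replicates 1 and 2. Those of ME1 were -0.35, -0.69 and 0.37. KEAP1, the inhibitor of NRF2, was singled out after its values were seen and did not pass the test.

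Promoters of members that moved together were searched for the letters their factor is known to bind, in RefSeq promoters of build GRCh38.p14 that run from 250 bases before to 50 after the start. The table had 35116 promoters of 27305 genes, and 5280 of the 7756 genes tested were matched by symbol. The antioxidant response element was searched as TGACNNNGC on both strands, and 13.3% of all promoters hold it. A gene was counted when any of its promoters had a match, which gave 16.1% of all genes and 20.5% of those tested. Among NRF2 list genes that fell, 5 of 16 with a promoter had it, and in the whole list 7 of 18, so members that did not fall hold it too. The promoters of GCLM (chr1:93909381-93909680, reverse strand) and ME1 (chr6:83431002-83431301, reverse strand) are shown because both genes fell in both replicates, with the match in capitals.
GCLM: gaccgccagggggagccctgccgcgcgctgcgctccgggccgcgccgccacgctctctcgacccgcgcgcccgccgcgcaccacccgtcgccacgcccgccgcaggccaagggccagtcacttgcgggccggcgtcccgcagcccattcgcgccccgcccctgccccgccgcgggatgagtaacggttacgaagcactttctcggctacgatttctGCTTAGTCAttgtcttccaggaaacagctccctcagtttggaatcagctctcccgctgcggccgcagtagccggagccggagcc
ME1: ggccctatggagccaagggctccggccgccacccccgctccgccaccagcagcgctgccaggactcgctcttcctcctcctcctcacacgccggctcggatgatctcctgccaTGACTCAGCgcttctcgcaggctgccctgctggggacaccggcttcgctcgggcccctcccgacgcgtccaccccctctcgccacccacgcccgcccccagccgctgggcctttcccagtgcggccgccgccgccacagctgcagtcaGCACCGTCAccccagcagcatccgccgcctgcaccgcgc
GCLM has 1 match and ME1 has 2. A match is a description of the letters and not a binding site.

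The enzyme families that handle carbonyls and foreign compounds overlapped with NRF2 genes in direction. Of 13 aldo-keto reductases on the list, 7 reached the minimum, and 5 of these were lower and 0 higher. The median was -3.23, and all 7 were below 0 in both replicates, while the other 2 did not pass the test. All 5 calls hold. That median is the value of AKR1B10, which like AKR1C1 and AKR1C2 reached the minimum only through its control columns, so it depends on the filter and the pseudocount. The ratio of AKR1B10 was -4.81 at a pseudocount of 0.1 and -1.61 at 5, and the list median -3.58 and -2.63, and -0.37 with no minimum. Among 59 genes of cytochrome P450 enzymes, UDP-glucuronosyltransferases, glutathione transferases and sulfotransferases, 13 reached the minimum, and 6 were lower and 0 higher, with a median of -0.65, and 5 of the 6 hold. MGST1, a membrane-bound glutathione transferase and the highest of them, fell from 487 and 375 RPKM in the control columns to 108 and 104 RPKM in the knockdown columns, with replicate log2 ratios of -2.16 and -1.85 and a limma adjusted p of 0.000627. CYP39A1, which hydroxylates an oxysterol, went from 9.54 and 7.11 RPKM to 2.07 and 1.88 RPKM, and SULT1A1, a phenol sulfotransferase, from 47.5 and 32.6 to 18.1 and 15.5 RPKM. CYP39A1 reached the minimum only through its control columns, at a mean of 5.15 RPKM. Most members of these families were below the minimum, so the counts describe only those that reached it.

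Of the metallothioneins that could be tested, all 4 rose. These proteins bind zinc and copper, and their genes lie in a cluster on chromosome 16. The list of 13 genes also holds the factor MTF1 and the zinc exporter SLC30A1, and 5 of the 13 reached the minimum. MT1F, MT1X, MT1E and MT2A were higher, at least 2-fold in both replicates, and the median of the 5 was 1.78. All 4 calls hold. MT1E rose from 51.4 and 44.0 RPKM in the control columns to 148 and 186 RPKM in the knockdown columns (mean log2 ratio 1.78, limma adjusted p 0.00097). MT2A, the most abundant, rose from 189.9 and 326 RPKM in the control columns to 563 and 1132 RPKM in the knockdown columns (mean log2 ratio 1.68, limma adjusted p 0.0152), and its replicates lay far apart within each condition. SLC30A1, named after its values were seen, had a mean log2 ratio of -0.70 and did not pass the test. Coding sequences of these genes are closely alike, so the split of uniquely aligned reads among them is uncertain. The metal response element was searched as TGCACNC and TGCGCNC, on both strands and with overlapping matches counted, and 29.6% of all promoters and 33.4% of all genes hold at least 1. The promoters of MT2A (chr16:56608334-56608633, forward strand) and MT1X (chr16:56682220-56682519, forward strand) are shown as those of the risen metallothioneins in the table, with each match in capitals.
MT2A: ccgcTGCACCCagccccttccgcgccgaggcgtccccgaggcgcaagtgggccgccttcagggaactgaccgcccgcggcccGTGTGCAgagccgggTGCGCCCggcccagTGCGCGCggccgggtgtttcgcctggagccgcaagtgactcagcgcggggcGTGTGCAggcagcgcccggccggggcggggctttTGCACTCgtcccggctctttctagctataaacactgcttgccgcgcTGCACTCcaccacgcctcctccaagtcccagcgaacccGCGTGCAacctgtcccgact
MT1X: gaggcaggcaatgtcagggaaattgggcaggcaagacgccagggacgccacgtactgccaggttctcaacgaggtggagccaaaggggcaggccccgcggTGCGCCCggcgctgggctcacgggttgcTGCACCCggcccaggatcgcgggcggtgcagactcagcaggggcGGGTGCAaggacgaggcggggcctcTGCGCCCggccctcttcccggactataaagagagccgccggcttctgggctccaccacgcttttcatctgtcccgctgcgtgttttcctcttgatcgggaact
MT2A has 8 matches and MT1X has 4. Among all genes that were higher, 48.1% had the element, beside 46.9% of genes tested. In the whole list 5 of 6 with a promoter had it.

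Genes of the integrated stress response, in which ATF4 raises enzymes and transporters of amino acid supply, rose in part. Of 30 on the list, 28 reached the minimum, and 12 were higher and 0 lower, with a median log2 ratio of 0.57. The members were not uniform, with 17 above 0 and 8 below 0 in both replicates, and 6 of the 12 calls hold. RNA-seq and Ribo-seq replicate 1 had no such rise of the list, with medians of 0.01 and -0.10 and 14 members above and 14 below 0 in RNA-seq, while Ribo-seq replicate 2 had 0.48. PCK2, the mitochondrial enzyme that makes phosphoenolpyruvate, rose to 27.0 and 33.2 RPKM in the knockdown columns, with replicate log2 ratios of 1.11 and 1.51 and a limma adjusted p of 0.00241. ASNS, asparagine synthetase, went from 28.2 and 30.5 RPKM to 57.7 and 91.6 RPKM (mean log2 ratio 1.28, limma adjusted p 0.00771). PSPH, the last enzyme of serine synthesis, went from 35.5 and 30.2 to 82.4 and 73.0 RPKM, and CHAC1, which degrades glutathione, from 3.28 and 4.48 to 7.66 and 12.9 RPKM. CHAC1 reached the minimum only through its knockdown columns. The other log2 ratios of ASNS were 0.16 in RNA-seq, -0.35 in Ribo-seq replicate 1 and 1.82 in Ribo-seq replicate 2, and those of CHAC1 were 0.76, -1.74 and 1.01, so for both genes only Ribo-seq replicate 1 was below 0. The highest member was PHGDH, the first enzyme of serine synthesis, which went from 249.6 and 203 RPKM to 351 and 439 RPKM (mean log2 ratio 0.80, limma adjusted p 0.036). ATF4 itself, singled out after its value was seen, did not pass the test. The element bound by ATF4 with C/EBP partners was searched as TGATGNAA on both strands, and 3.62% of all promoters and 4.46% of all genes hold it. Of the list genes that rose, 3 of 10 with a promoter had it, against 4.15% of all genes that rose and 2.73% of those tested. In the whole list it was 6 of 22, so members that did not rise hold it about as often. The promoters of ASNS (chr7:97872359-97872658, reverse strand) and CHAC1 (chr15:40953221-40953520, forward strand) are shown as members that rose, with the match in capitals.
ASNS: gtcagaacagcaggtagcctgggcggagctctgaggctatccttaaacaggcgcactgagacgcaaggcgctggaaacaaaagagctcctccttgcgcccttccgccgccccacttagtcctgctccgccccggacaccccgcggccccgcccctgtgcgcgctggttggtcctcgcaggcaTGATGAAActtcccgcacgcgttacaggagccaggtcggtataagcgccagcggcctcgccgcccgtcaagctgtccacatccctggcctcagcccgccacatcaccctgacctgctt
CHAC1: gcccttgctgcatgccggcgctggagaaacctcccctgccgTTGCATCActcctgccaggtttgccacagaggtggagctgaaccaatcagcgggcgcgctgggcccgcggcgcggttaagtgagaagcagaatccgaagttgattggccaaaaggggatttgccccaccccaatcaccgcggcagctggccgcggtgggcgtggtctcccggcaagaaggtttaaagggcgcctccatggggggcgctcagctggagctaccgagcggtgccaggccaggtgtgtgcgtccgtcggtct
Among the 22 aminoacyl-tRNA synthetases of the cytosol, which charge tRNAs with amino acids, 21 reached the minimum and 3 were higher and 0 lower, a handful of genes, against 6.78% and 7.63% of all genes. WARS, for tryptophan, had the largest ratio and rose from 85.8 and 85.7 RPKM in the control columns to 183 and 224 RPKM in the knockdown columns (mean log2 ratio 1.23, limma adjusted p 0.00425). CARS and GARS also rose, with mean log2 ratios of 0.87 and 0.70. The limma call was lost with a column left out, at the adjusted p given, for PHGDH (0.0602 and 0.221 without control replicate 2 and knockdown replicate 2), CARS (0.108 without knockdown replicate 2) and GARS (0.0723 and 0.333 without control replicate 1 and knockdown replicate 2).

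Chaperones of the endoplasmic reticulum, which fold secreted proteins and are raised when unfolded protein accumulates there, had more falls than rises. Of 28 on the list, 27 reached the minimum, with 1 higher and 7 lower, 19 not past the threshold and a median log2 ratio of -0.39, against 6.78% higher and 7.63% lower of all genes. PPIB, the cyclophilin of the secretory pathway, fell from 182 and 166 RPKM in the control columns to 34.5 and 38.3 RPKM in the knockdown columns (mean log2 ratio -2.23, limma adjusted p 0.000159). Of the 7 falls 5 hold, and of the rises 0. PDIA6 and PDIA5 are disulfide isomerases. PDIA6 went from 452 and 418 RPKM to 198 and 172 RPKM (mean log2 ratio -1.23, limma adjusted p 0.00442), and PDIA5 had a mean log2 ratio of -1.28. CRELD2, a stress-induced protein of the same compartment, went from 22.4 and 22.3 RPKM to 10.6 and 12.3 RPKM (mean log2 ratio -0.91, limma adjusted p 0.00783). CALR, calreticulin, had the highest level, 2708 and 1709 RPKM in the control and 1359 and 1001 RPKM in the knockdown columns, and missed the threshold with an adjusted p of 0.0575. The endoplasmic reticulum stress response element was searched on both strands as CCAAT, 9 further bases of any kind and CCACG. It was found in 27 of 35116 promoters, 0.0769%. Counted by gene, 0.208% of genes tested and 0.976% of all that fell had it. Among the chaperones it was in 3 of 7 that fell and in 5 of 21 of the whole list with a promoter, so it also occurs in chaperones that did not fall. The promoters of PDIA6 (chr2:10812736-10813035, reverse strand) and CRELD2 (chr22:49918384-49918683, forward strand) are shown as members that fell, with the whole element in capitals.
PDIA6: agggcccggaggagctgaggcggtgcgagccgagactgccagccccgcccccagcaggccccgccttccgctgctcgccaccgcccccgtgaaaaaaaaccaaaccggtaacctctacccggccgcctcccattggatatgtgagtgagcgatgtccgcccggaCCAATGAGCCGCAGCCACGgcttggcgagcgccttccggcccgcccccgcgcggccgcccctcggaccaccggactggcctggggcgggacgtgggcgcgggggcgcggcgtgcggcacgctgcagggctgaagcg
CRELD2: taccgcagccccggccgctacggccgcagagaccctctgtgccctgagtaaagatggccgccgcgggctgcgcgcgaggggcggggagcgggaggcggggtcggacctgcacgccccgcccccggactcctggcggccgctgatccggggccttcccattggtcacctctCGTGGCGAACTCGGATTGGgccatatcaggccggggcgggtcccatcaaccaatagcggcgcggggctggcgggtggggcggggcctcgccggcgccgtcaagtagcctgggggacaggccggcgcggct
Heat shock proteins of the cytosol and mitochondria, 21 of 26 at the minimum, had 1 higher and 3 lower, against the 6.78% and 7.63% of all genes, and a median of -0.15. HSP90AA1, the most abundant, rose from 806 and 842 RPKM in the control columns to 1381 and 1306 RPKM in the knockdown columns (mean log2 ratio 0.70, limma adjusted p 0.042). DNAJB4, a cochaperone of HSP70, fell from 193 and 181 RPKM in the control columns to 56.5 and 43.2 RPKM in the knockdown columns (mean log2 ratio -1.90, limma adjusted p 0.000764). Of the falls 2 hold. HSPB8 and CRYAB, small heat shock proteins, fell with mean log2 ratios of -1.24 and -0.67. Leaving out a column undid the limma call, at the adjusted p given, of HSP90AA1 (0.128, 0.146 and 0.137 without control replicate 1, knockdown replicate 1 and knockdown replicate 2) and CRYAB (0.141, 0.0712 and 0.0887 without control replicate 1, knockdown replicate 1 and knockdown replicate 2).

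Among targets of p53 the calls were falls. Of 30 on the list, 22 reached the minimum, and 9 were lower, 0 higher and 13 not past the threshold, against 7.63% lower and 6.78% higher of all genes. The median log2 ratio was -0.64. Both replicates were below 0 in 19 of the 22, against 2988 of all 7756 genes tested. In Ribo-seq replicate 2 the list median was 0.16. Beside CDKN1A, BTG2, an antiproliferative protein, fell from 13.1 and 13.9 RPKM in the control columns to 2.82 and 2.86 RPKM in the knockdown columns (mean log2 ratio -1.92, limma adjusted p 0.00015). MDM2, the ligase that degrades p53, went from 36.4 and 37.1 RPKM to 16.2 and 12.9 RPKM (mean log2 ratio -1.28, limma adjusted p 0.00263), and the death receptor gene FAS from 10.7 and 7.99 to 3.76 and 3.12 RPKM. Elsewhere MDM2 hardly moved, with log2 ratios of -0.11 in RNA-seq and 0.03 and 0.26 in Ribo-seq replicates 1 and 2. In the same order FAS had -0.54, 0.04 and 0.20, and BTG2 had -1.22, -1.08 and -1.05. BTG2 and FAS are among the 3 of the 9 that reached the minimum only through their control columns, and 6 of the 9 calls hold. TRIAP1 had the highest mean over the 4 columns and did not pass the test, at a mean log2 ratio of 0.03. Genes of the cell cycle and DNA replication, 61 of 67 at the minimum, had 5 higher and 3 lower, against 6.78% and 7.63% of all genes, which are similar shares, and 0 of the 5 and 1 of the 3 hold. Their PARS-seq median was 0.25, with 42 of the 61 above 0 in both replicates, against 3335 of all 7756 genes tested. In the RNA-seq pair 20 of the 61 were above 0 and 41 below. The falls included CCND3, cyclin D3, from 30.9 and 33.9 RPKM to 14.1 and 14.5 RPKM, and CKS2, the most abundant, whose symbol is merged with a microRNA gene, from 1435 and 1182 to 770.3 and 762 RPKM. The rises included RRM2, a subunit of ribonucleotide reductase, at 0.82, FEN1, a flap nuclease, at 0.82, and MCM10, a replication initiation factor, at 0.82. Several of these limma calls depend on a column and were lost at the adjusted p given: CKS2 (0.162, 0.0875 and 0.133 without control replicate 1, knockdown replicate 1 and knockdown replicate 2), RRM2 (0.053 without knockdown replicate 1), FEN1 (0.0614 and 0.194 without control replicate 1 and knockdown replicate 2) and MCM10 (0.0786 without knockdown replicate 2).

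Histone genes of the replication-dependent kind, whose transcripts normally lack a poly(A) tail, had rises among the calls. Of 65 on the list, 34 reached the minimum, and 14 were higher and 0 lower, with a median log2 ratio of 0.59, and 3 of the 14 calls hold. HIST1H3F went from 7.36 and 6.08 RPKM to 18.0 and 15.1 RPKM (mean log2 ratio 1.19, limma adjusted p 0.00334). HIST1H2AG had replicate log2 ratios of 1.42 and 0.70 and HIST1H2AH of 1.43 and 0.64, so replicate 1 moved further in both. The most abundant, the linker histone HIST1H1C, did not pass the test and had 153 and 124 RPKM in the control and 110.3 and 96.5 RPKM in the knockdown columns. Copies within a histone class are nearly identical, so how reads divide among them is uncertain.

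Lipid and energy metabolism were mixed. Cholesterol synthesis and uptake genes, 24 of 27 at the minimum, had 7 lower and 0 higher, with a median of -0.44 and 21 below 0 in both replicates. INSIG1, which restrains sterol synthesis, fell from 74.0 and 50.5 RPKM in the control columns to 28.6 and 19.8 RPKM in the knockdown columns (mean log2 ratio -1.32, limma adjusted p 0.00826). The enzymes MVD, SQLE and IDI1 fell, with mean log2 ratios of -1.21, -1.07 and -0.90. EBP, the highest on the list, did not pass the test. Fatty acid synthesis had 3 higher, 1 lower and 11 not past the threshold, and among them FASN, fatty acid synthase, went from 36.9 and 36.8 RPKM to 58.2 and 56.9 RPKM while ME1, shared with the NRF2 list, fell. Of 21 glycolytic genes at the minimum, 4 were higher and 5 lower. The glucose transporters on that list parted: SLC2A1 went from a control mean of 40.4 RPKM to a knockdown mean of 19.4 RPKM (mean log2 ratio -1.02, limma adjusted p 0.00481) and SLC2A3 from 53.4 and 43.3 to 144 and 112 RPKM (mean log2 ratio 1.38, limma adjusted p 0.00362). ALDOA, an aldolase, fell from 297 and 251 RPKM in the control columns to 78.4 and 82.6 RPKM in the knockdown columns (mean log2 ratio -1.75, limma adjusted p 0.000873), and GAPDH from 1208 and 975 to 626 and 640.5 RPKM. Iron genes, 13 of 19 at the minimum, had 1 higher and 4 lower. The higher one was SLC11A2, an importer of ferrous iron, at 1.11. Calls that limma no longer made with a column left out, with the adjusted p, were IDI1 (0.0637 and 0.177 without control replicate 1 and knockdown replicate 2), FASN (0.102, 0.0555, 0.131 and 0.151 without control replicate 1, control replicate 2, knockdown replicate 1 and knockdown replicate 2), FADS1 (0.159, 0.186 and 0.052 without control replicate 2, knockdown replicate 1 and knockdown replicate 2), SREBF1 (0.091 and 0.17 without control replicate 2 and knockdown replicate 1) and GAPDH (0.161, 0.0951 and 0.115 without control replicate 1, knockdown replicate 1 and knockdown replicate 2). FADS1 and SREBF1 are each merged with a microRNA gene. The call of FASN needs all 4 columns, and 0 of the 3 rises in fatty acid synthesis hold. In the other lists here, 3 of the 7 falls in cholesterol synthesis hold, 3 of 4 rises and 2 of 5 falls in glycolysis, and 1 of 1 and 3 of 4 among iron genes.

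The machinery of translation, respiration, protein turnover and RNA processing was mixed. None of the 75 cytosolic ribosomal protein genes at the minimum passed the limma threshold, and their median was 0.00 as deposited and just below 0 after either rescaling of the columns. Mitochondrial ribosomal proteins had 0 higher and 7 lower of 75, and nuclear oxidative phosphorylation subunits 2 higher and 5 lower of 79. Their medians were -0.16 and -0.24. SDHD, a subunit of succinate dehydrogenase, fell furthest, from 10.1 and 7.30 RPKM to 3.42 and 2.38 RPKM, and reached the minimum only through its control columns. Proteasome subunits had 1 higher and 4 lower of 33, with a median of -0.36 and 27 below 0 in both replicates. Among them PSMD11 went from 55.1 and 52.4 RPKM to 24.5 and 25.8 RPKM (mean log2 ratio -1.07, limma adjusted p 0.00451). Translation factors had 2 higher and 3 lower of 44, splicing factors of the SR and hnRNP families 2 higher and 0 lower of 35, and nonsense-mediated decay factors 3 higher and 1 lower of 17. HNRNPUL1 and HNRNPD were the splicing factors that rose, with mean log2 ratios of 1.11 and 1.09. Integrins, matrix and cytoskeleton had 2 higher and 4 lower of 45, with SPP1 the lowest. The ZNF genes had 6 higher and 3 lower of 88, the small nucleolar RNAs 1 and 1 of 25, and the microRNA genes 1 and 1 of 32. Over all genes tested 6.78% were higher and 7.63% lower. Most of these calls do not hold. Among mitochondrial ribosomal proteins 1 of 7 falls holds, among oxidative phosphorylation subunits 0 of 2 rises and 1 of 5 falls, among proteasome subunits 0 of 1 and 2 of 4, among translation factors 1 of 2 and 2 of 3, and among splicing factors 1 of 2, since that of HNRNPD (0.101 without knockdown replicate 2) does not at the adjusted p given. None of the nonsense-mediated decay calls holds, the limma adjusted p being too high for CASC3 (0.129 and 0.126 without control replicate 1 and knockdown replicate 2), RNPS1 (0.0753 and 0.0601 without control replicate 1 and knockdown replicate 2), SMG1 (0.0653 and 0.0833 without control replicate 1 and knockdown replicate 1) and GSPT1 (0.0589 without knockdown replicate 2). Nor does either snoRNA call, SCARNA17 (0.0688 without knockdown replicate 1) and SNORD116-8 (0.211 and 0.136 without control replicate 1 and knockdown replicate 2). Among integrins, matrix and cytoskeleton 0 of 2 rises and 1 of 4 falls hold. The fall that holds is that of SPP1, which reached the minimum only through its control columns. Among ZNF genes 0 of 6 rises and 2 of 3 falls hold. Both microRNA calls hold, each from a gene with a mean under 5 RPKM in one condition.

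**Figure D3:**
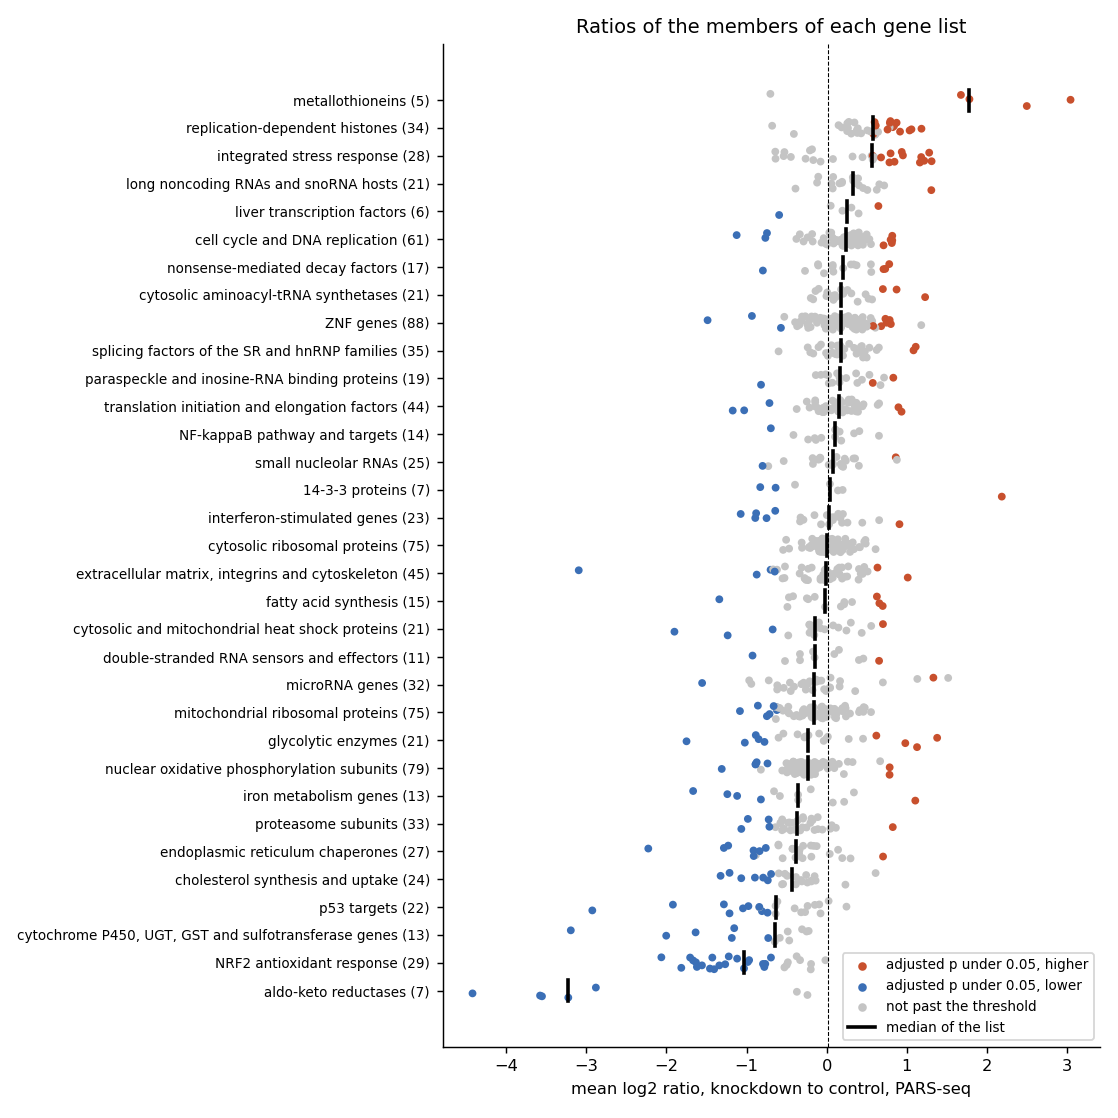
Mean log2 ratio of knockdown to control of each member that reached 5 RPKM, for the lists with at least 5 such members (number in brackets), coloured by the limma call, with the list median as a black bar and the median of all genes as a dashed line. Aldo-keto reductases (median -3.23, with -2.63 at a pseudocount of 5) and NRF2 genes (-1.03) lie lowest, and metallothioneins (1.78) highest. With no minimum these 3 medians were -0.37, -1.01 and 0.05, so the order depends on the minimum.

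The immune genes tied to double-stranded RNA had no common direction in PARS-seq. Of 46 interferon-stimulated genes, 23 reached the minimum, with 1 higher and 5 lower, against 6.78% and 7.63% of all genes, and a median of 0.03, a value whose sign changes with the filter. Of these calls 1 of 1 and 2 of 5 hold. In the RNA-seq pair 22 of these 23 were above 0, and their medians were 0.64 in RNA-seq and 0.68 and 0.52 in Ribo-seq replicates 1 and 2. IFI44 went from 18.3 and 14.1 RPKM to 8.29 and 6.08 RPKM (mean log2 ratio -1.07, limma adjusted p 0.00885), SP100, which reached the minimum only through its control columns, fell by 0.88 on the log2 scale, and B2M, the light chain of class I molecules, from 1038 and 753 to 557 and 408 RPKM. TRIM25, a ligase upstream of RIG-I merged with a microRNA gene in the table, rose from 11.4 and 10.8 RPKM to 21.6 and 21.9 RPKM. The most abundant, IFITM2, did not pass the test. Of 17 sensors and effectors of double-stranded RNA, 11 reached the minimum, with TARBP2 higher at 0.66 and OASL lower at -0.92. EIF2AK2, the kinase PKR and the highest of them, had 44.7 and 44.4 RPKM in the control columns and 69.2 and 54.9 RPKM in the knockdown columns and did not pass the test, with an adjusted p of 0.13. Of 20 interferons and inflammatory cytokines, only CCL5 and CCL2 reached the minimum. CCL5, at a mean of 5.54 RPKM, did so only through its control columns, so the filter decides whether its fall is counted. CCL5, a chemokine for T cells, fell from 12.5 and 7.26 RPKM in the control columns to 1.37 and 1.03 RPKM in the knockdown columns (mean log2 ratio -2.27, limma adjusted p 0.000609). CCL2, which attracts monocytes, went from 33.0 and 39.6 to 10.5 and 11.8 RPKM (mean log2 ratio -1.61, limma adjusted p 0.000873). The other log2 ratios of CCL2 were -0.43 in RNA-seq and 0.08 and 0.56 in Ribo-seq replicates 1 and 2. Those of CCL5 were -0.84, -0.71 and -2.06. In the NF-kappaB list, 14 of 24 reached the minimum with 0 higher and 1 lower, and that gene was the inhibitor NFKBIA at -0.70. Proteins that bind inosine RNA or form paraspeckles had 2 higher and 1 lower of 19, and the lower one was DICER1, merged with a microRNA gene, at -0.82, and 0 of these calls hold. The long noncoding RNA NEAT1, the scaffold of paraspeckles, rose from 199 and 340.3 RPKM in the control columns to 529 and 787 RPKM in the knockdown columns (mean log2 ratio 1.31, limma adjusted p 0.0193), the 1 call among 21 noncoding RNAs and snoRNA hosts at the minimum. Not every call here held with a column left out, the adjusted p in limma then being too high for B2M (0.119 and 0.21 without control replicate 1 and knockdown replicate 2), TARBP2 (0.208, 0.0578 and 0.143 without control replicate 1, knockdown replicate 1 and knockdown replicate 2), OASL (0.134 without control replicate 1), NFKBIA (0.197, 0.0591 and 0.137 without control replicate 1, knockdown replicate 1 and knockdown replicate 2) and DICER1 (0.107 without knockdown replicate 2).

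Few liver products could be compared. Secreted plasma proteins had 0 higher and 2 lower of 4, and TFPI, an inhibitor of clotting, fell from 40.1 and 37.9 RPKM in the control columns to 19.9 and 17.5 RPKM in the knockdown columns (mean log2 ratio -1.02, limma adjusted p 0.00547). PROS1, the gene of protein S, fell with a mean log2 ratio of -1.07. Apolipoproteins and lipoprotein proteins had 0 calls of 4 in limma, and PLTP, the highest, ranged from 458 to 1613 RPKM between the control columns alone. Liver transcription factors had 1 higher and 1 lower of 6, TBX3 being lower at -0.59 and NR2F2, merged with a microRNA gene, higher at 0.65. Among the 7 genes of 14-3-3 proteins YWHAH rose, as given above, while SFN and YWHAG fell. SFN went from 149.8 and 162 RPKM to 73.4 and 104 RPKM (mean log2 ratio -0.83, limma adjusted p 0.0324). YWHAG had a mean log2 ratio of -0.64, and the most abundant, YWHAE, did not pass the test. Without 1 column limma no longer called, at the adjusted p given, PROS1 (0.0601 without knockdown replicate 2), TBX3 (0.182, 0.0538 and 0.218 without control replicate 1, knockdown replicate 1 and knockdown replicate 2), NR2F2 (0.269 and 0.18 without control replicate 1 and knockdown replicate 2), SFN (0.195 without knockdown replicate 1) and YWHAG (0.108, 0.103 and 0.213 without control replicate 2, knockdown replicate 1 and knockdown replicate 2).

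The same genes were read in RNA-seq and Ribo-seq, as single pairs of libraries without a test. Of the genes higher in PARS-seq with at least 1 RPKM on average in RNA-seq, 478 of 511 had an RNA-seq ratio above 0, and of those lower 547 of 579 had one below 0. Over all genes tested 45.4% were above 0. The RNA-seq ratios were smaller, with a median log2 ratio of 0.39 for the genes that rose and -0.49 for those that fell. Ribo-seq replicate 1 had 81.2% of the risen genes above 0 and 88.7% of the fallen genes below 0. In Ribo-seq replicate 2 these shares were 69.1% and 47.1%, where all genes tested with at least 1 RPKM had a median log2 ratio of 0.23. Over all genes tested 67.3% were above 0 and 32.7% below 0 in that pair, so the risen genes lay near all genes and the fallen genes lower than all genes. Several lists with a median below 0 in PARS-seq were above 0 there, among them cytochrome P450 and conjugating enzymes at 0.50, cholesterol genes at 0.45 and endoplasmic reticulum chaperones at 0.40. ADAR itself went from 55.5 to 44.0 RPKM there, a log2 ratio of -0.33, against -1.77 in RNA-seq and -2.20 in Ribo-seq replicate 1. The target was thus far less reduced in that pair than in the others, although the library is labelled as a knockdown. For AKR1C1 the log2 ratio was -2.33 in RNA-seq, -2.24 in Ribo-seq replicate 1 and -1.14 in Ribo-seq replicate 2. CDKN1A had -1.61 in RNA-seq, -1.90 in Ribo-seq replicate 1 and -1.27 in Ribo-seq replicate 2. The values of YWHAH were 1.71 in RNA-seq, 1.29 in Ribo-seq replicate 1 and 1.17 in Ribo-seq replicate 2. SPP1, which fell in PARS-seq, was listed at 0 RPKM in the RNA-seq control and in all Ribo-seq libraries, so its PARS-seq level has no counterpart there.

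**Figure D4:**
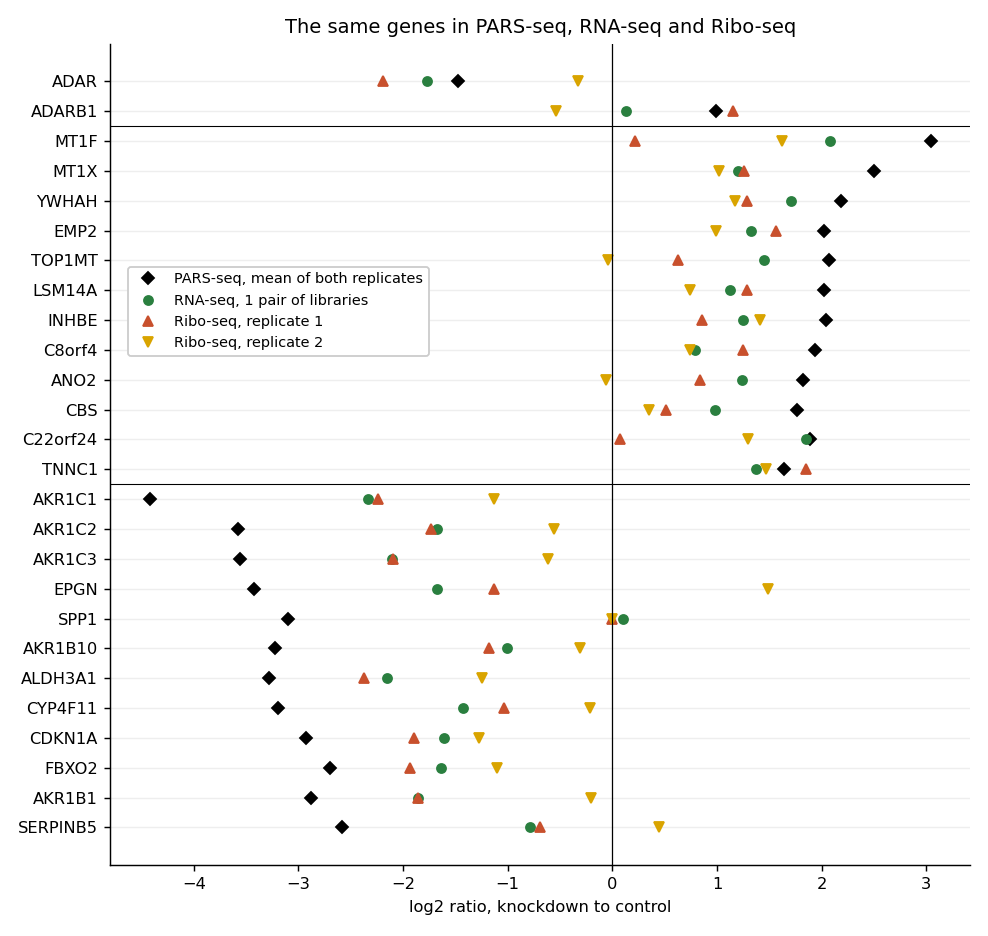
Log2 ratio of knockdown to control in PARS-seq (mean of both replicates), RNA-seq and both Ribo-seq replicates for ADAR, ADARB1, the 12 largest rises and the 12 largest falls. RNA-seq has the direction of PARS-seq in 12 of 12 rises and 11 of 12 falls, and Ribo-seq replicate 2 in 10 and 9.

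The pooled columns hide the nucleases, so the 8 libraries were also compared from the deposited read starts, the number of reads that begin at each base, summed per transcript. One S1 control library lists 4722 transcripts where the other 7 list 21052 to 22402, and why is not known, so that library decided which transcripts were tested. Of the 4722, found in all libraries, 4721 were above the minimum and were tested with limma. Read starts were scaled to the total of each library over these 4722 transcripts only, called library totals here. These totals ran from 88565995 to 197781370 read starts. The tables carry UCSC transcript names, and a supplementary table of the study paired some with gene symbols. By the study's description, it lists covered transcripts whose share of paired bases changed in the same direction in both replicates. Transcripts with a symbol are therefore a set chosen on depth and on that change. The median log2 ratio of knockdown to control was -0.33 under scaling by library totals and 0.02 under TMM scaling, so ratios by totals are to be read against -0.33. The effect of the knockdown differed between S1 and V1 in 0 of 4721 transcripts (0%) at an adjusted p under 0.05 in limma, and in 13 at an unadjusted p under 0.05, 0.275%. That is far under the share of 0.05 that no difference at all would give. The median difference was 0.11 in size beside a median standard error of 0.42. The fit could thus hardly find a difference, and the count of 0 does not show that the nucleases agree. That fit counts the 8 libraries as separate samples, although those of a replicate share their origin. With the libraries of a replicate joined, an alternative chosen after seeing the data, the difference between V1 and S1 passed in 8 transcripts, with 103 at an unadjusted p under 0.05, so the count of 0 depends on that choice. Of these 8, 7 had the lower ratio with V1. One of them, uc021vjf.1, singled out after its values were seen, also passed in the first fit without S1 knockdown replicate 1 and without S1 control replicate 2. Averaged over the nucleases, 122 transcripts (2.58%) were higher and 1642 (34.8%) lower by totals, and 715 were higher and 796 lower with TMM scaling. A block for the replicate number gave 165 and 1887, and joining the libraries of a replicate gave 44 and 663. In place of 1764 with an effect by totals, there were 1026 without S1 control replicate 1, 1115 without S1 knockdown replicate 1, 959 without V1 control replicate 1 and 1149 without V1 knockdown replicate 1.

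In the fit of separate libraries, none of the 49 named genes with a paired transcript had ratios that differed between the nucleases past the limma threshold. As said above, that fit could hardly find such a difference. For CDKN1A (uc021yzb.1) the S1 libraries held 61906 and 71593 read starts in the control and 7554 and 7341 in the knockdown, a log2 ratio of -3.12 after scaling. Its V1 libraries gave -3.28. AKR1B1 (uc003vrp.1) had -3.13 with S1 and -3.12 with V1. YWHAH (uc003alz.3) rose by 1.95 and 1.94. NFKBIA was the furthest apart of the 49, with -1.26 for S1 and -0.77 for V1, followed by HIST1H2AG with 0.91 and 0.48, and the difference did not pass the limma threshold for either. Of 1770 transcripts with a gene symbol and a tested RPKM level, 72 belonged to genes higher in RPKM and 188 to genes lower, and every one of these lay on that side of the median transcript in both S1 and V1. These read starts come from the same libraries as the RPKM, so they show how the pooled columns divide and are no independent measure.

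**Figure D5:**
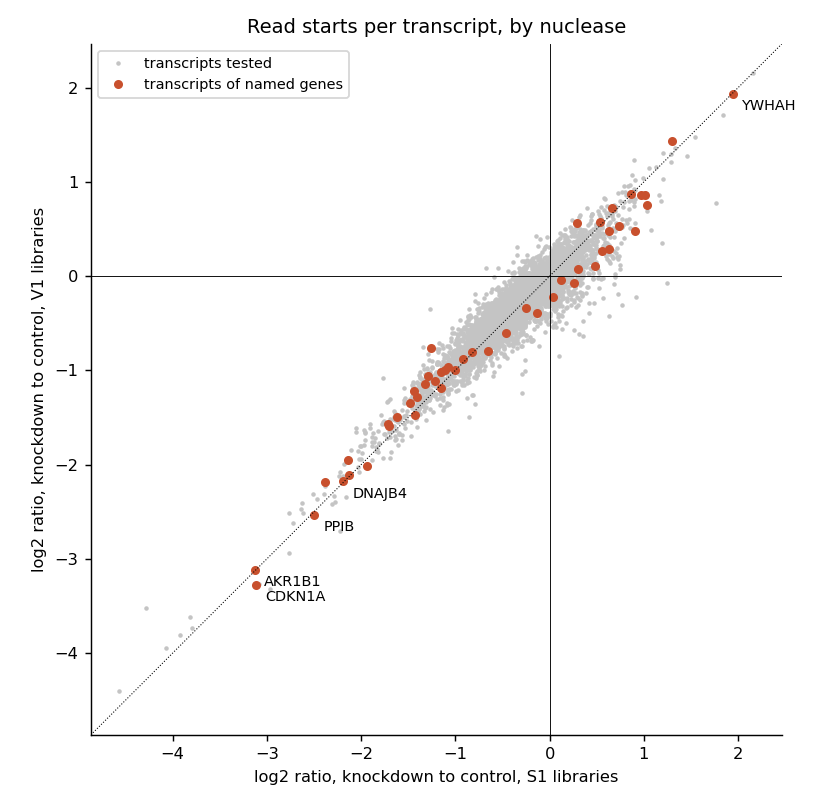
Log2 ratio of knockdown to control of read starts per transcript in S1 libraries (horizontal) and V1 libraries (vertical), for 4721 transcripts and, in colour, the transcripts of named genes. Read starts are scaled by library totals over the transcripts found in all libraries. Points follow the dotted line of equal ratios around medians of -0.35 (S1) and -0.32 (V1), from CDKN1A and AKR1B1 at the lower left to YWHAH at the upper right.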

How the data were processed

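The authors aligned reads to hg19 with Bowtie2, kept unique alignments, counted coverage of RefSeq transcripts and deposited RPKM, each PARS-seq column being their mean of an S1 and a V1 library. The program cutadapt is named in the submitters' processing notes, and no versions are given. The deposited read starts (another unit, whole numbers for each base of UCSC transcripts) were counted by the authors from uniquely aligned reads.

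From these values, log2(RPKM + 1) of genes with a mean of at least 5 RPKM was fitted with limma 3.58.1 in R 4.3.3 (mean trend, moderated variance, no block), with Benjamini-Hochberg adjustment over 7756 genes. Read starts scaled to library totals, plus 0.5, were fitted with enzyme, condition and their interaction, for transcripts that reached 10 read starts in at least 2 libraries after scaling to a common depth. The totals were summed only over transcripts found in all libraries. Both fits were tested on simulated data with independent columns and libraries. Same-numbered columns here deviate together and S1 and V1 libraries share their origin, so that test does not cover such dependence. Python 3.11.15 and pandas 2.3.3 summarised the lists. The p-values measure only the spread between these samples.

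Genes are named by rule: ADAR and ADARB1, the 12 largest rises and 12 largest falls by the smaller replicate ratio, among single symbols past the threshold, without small RNAs, and for each list up to 4 members past the threshold with the largest ratio and the most abundant member. Others are said to be singled out. Members and lists were chosen with earlier results of these data known. List members were looked up by symbol, and those under another name in the table are not counted. Alternatives were pseudocounts of 0.1 and 5, minimum means of 1 and 20 RPKM and none, centred columns, TMM scaling, a replicate block, and each column or library left out. Joining the S1 and V1 libraries of a replicate was added after seeing the data.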

Additional observations from a re-analysis of the deposited data

Results flagged for a closer look

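Results in this section had both PARS-seq replicates on one side of 0 and past the limma threshold while RNA-seq and both Ribo-seq replicates lay on the other side. The difference between the assays was not tested. NEAT1 had a mean log2 ratio of 1.31 in PARS-seq, with -0.19 in RNA-seq, -1.05 in Ribo-seq replicate 1 and -0.73 in Ribo-seq replicate 2. Its transcript is noncoding. Its Ribo-seq level was 7.80 RPKM in the control and 3.24 RPKM in the knockdown of replicate 1, and 45.2 and 26.9 RPKM in those of replicate 2. IFI44, an interferon-stimulated gene, had -1.07 in PARS-seq and 0.21 in RNA-seq, 1.06 in Ribo-seq replicate 1 and 0.52 in Ribo-seq replicate 2. B2M had -0.89 in PARS-seq, beside 0.05 in RNA-seq, 0.08 in Ribo-seq replicate 1 and 0.80 in Ribo-seq replicate 2. OASL, a relative of the oligoadenylate synthetases, had -0.92 in PARS-seq, beside 0.33 in RNA-seq, 0.21 in Ribo-seq replicate 1 and 0.11 in Ribo-seq replicate 2. For SP100, a nuclear body protein, the PARS-seq ratio was -0.88, and the others were 0.00 in RNA-seq, 0.38 in Ribo-seq replicate 1 and 0.47 in replicate 2, so its RNA-seq level hardly moved. SP100 reached the minimum in PARS-seq only through its control columns. UQCRFS1, a subunit of respiratory complex III, had -0.89 in PARS-seq, with 0.13 in RNA-seq, 0.15 in Ribo-seq replicate 1 and 1.00 in Ribo-seq replicate 2. In Ribo-seq replicate 2 the median of all genes tested with at least 1 RPKM was 0.23, above the value of OASL there. The limma call in PARS-seq was lost with a column left out, at the adjusted p given, for B2M (0.119 and 0.21 without control replicate 1 and knockdown replicate 2), OASL (0.134 without control replicate 1) and UQCRFS1 (0.16 without knockdown replicate 1).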

How the results depend on the processing

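With a pseudocount of 5 RPKM, 30 genes were 2-fold higher and 105 were 2-fold lower in both replicates, as a larger pseudocount shrinks ratios. A minimum mean of 1 RPKM gave 899 genes higher and 829 lower, so that the higher genes were then the more numerous, and 20 RPKM gave 211 higher and 334 lower, with 36 and 97 at 2-fold, from other numbers of genes tested. With no filter, 0 genes were higher and 0 lower in limma, at a lowest adjusted p of 0.057. At an unadjusted p under 0.05 there were 4661. ADAR kept -1.47 there with an adjusted p of 0.0662. The cause was not tested.

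A replicate block gave 2002 higher and 1827 lower. Deviations of same-numbered columns correlated at 0.66 over genes, so these columns deviated together, which the main fit without a block leaves out. The replicate log2 ratios do pair same-numbered columns. There are only 2 pairs, and what a shared number stands for is not stated. The 2-fold counts have no test and so no block.

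Leaving out 1 column, with the lone one left assumed to vary like the others, gave 276 to 788 genes higher, 352 to 877 lower, 70 to 122 at 2-fold higher, 140 to 236 at 2-fold lower, and ADAR ratios of -1.57 to -1.37 (adjusted p 3.84e-08 to 0.00022). Knockdown replicate 2 left out gave the fewest limma calls, control replicate 1 left out gave 333 higher, and control replicate 2 left out gave the 122. Calls kept from the 1118 ranged from 582 to 976. Leaving out 1 library gave 0 to 1 transcripts whose effect differed between S1 and V1 and 959 to 1940 with an effect over both nucleases, with 959 to 1149 where a replicate 1 library was the one left out. Leaving out replicate 1 of every group left no residual degrees of freedom and was not run. Joining the S1 and V1 library of a replicate, chosen after seeing the data, gave 8 transcripts whose effect differed between S1 and V1 and 707 with an effect over both.

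No named gene past the threshold changed sign under any alternative. Among 158 named genes, 2 lost the threshold with centred columns, 4 with TMM scaling and 38 without knockdown replicate 2, and FADS1, merged with a microRNA gene, was the 1 lost with a pseudocount of 0.1. Of 132 named genes past the threshold, 49 lost it without at least 1 column. Of 39 list medians, 1 changed sign under TMM scaling, that of cytosolic ribosomal proteins, and 2 with centred columns, that list and the apolipoproteins. Minimum means of 1 and 20 RPKM changed the sign of 3 and 7, no filter of 7, a pseudocount of 5 of 1, and leaving out control replicate 1, control replicate 2 or knockdown replicate 2 of 6, 3 and 6. Whichever column was left out, 174 of 526 higher and 278 of 592 lower genes kept the call. Read starts give the depth of some paired transcripts, and how far depth limits low genes was not tested.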

Other observations

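FTL took 4.90% and 4.55% of all RPKM in the control columns and was the highest there. In knockdown replicate 2 it was also the highest, at 2.08%, while in knockdown replicate 1 RPL37, merged with a small nucleolar RNA, was, at 1.72%. H19, merged with a microRNA gene, was the highest in both RNA-seq libraries. MALAT1, a nuclear noncoding RNA of the noncoding list, had 533 and 664 RPKM in the PARS-seq control columns and 974 and 867 RPKM in the knockdown columns and did not pass the limma test (adjusted p 0.0763). Its other ratios were -0.95 in RNA-seq, -0.64 in Ribo-seq replicate 1 and -0.36 in Ribo-seq replicate 2.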
